A study of Mus musculus with 18 samples.

Results

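The 40 genes described here build and run mitosis: the checkpoint kinases, the triggers of anaphase, the chromosomal passenger proteins, the kinetochore, the condensin rings, and the proteins of the mitotic chromosome, spindle and cleavage furrow. They were chosen by symbol, and all 40 were on the array, each with 1 probe set that carries 1 symbol, among 19752 genes measured. Their levels were read in regulatory T cells (Tregs, CD4+ T cells that express Foxp3 and restrain immune responses) on 18 Affymetrix Mouse Gene 1.0 ST arrays, in 6 groups of 3. Every mouse was on the NOD background, the non-obese diabetic strain.

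The 4 spleen groups came from female Foxp3-eGFP-Cre-ERT2 x Rosa26-YFP mice, in which Foxp3+ cells carry GFP and a Cre that works only in the presence of tamoxifen, so that a cell expressing Foxp3 during the drug is marked by YFP for good. Tamoxifen was given in 4 injections at 0 to 10 days of age (perinate) or at 35 to 45 days (adult), and cells were taken at 60 days per the sample labels, or 8 weeks per the series text. GFP+YFP+ cells are the tagged Tregs of either window. GFP+YFP- cells of either treatment are the untagged bulk, which holds every Treg that was not recombined, whatever its age. The 2 thymus groups were CD4+ GFP+ Tregs of male mice aged 4 days (perinate) or 5 weeks (adult), sorted on another instrument. No tamoxifen is recorded for the thymus groups. Sex, organ, sorter, age of the mice and recorded tamoxifen therefore differ together between spleen and thymus and cannot be told apart. The thymus groups differ in the age of the mice, and the tagged spleen groups in the tagging window at the same age. The labels do not say whether replicates were separate animals or pools, so the p-values measure the spread between these arrays only.

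A dividing cell condenses each chromosome with the ring-shaped condensins, attaches it to spindle microtubules through the kinetochore, and holds anaphase back by the spindle checkpoint until every chromosome is attached. Cdc20 then activates the ubiquitin ligase that frees separase to cut cohesin, and the cleavage furrow parts the daughter cells. Most of these genes are silent in resting cells and transcribed together late in the cell cycle. MuvB-containing complexes, DREAM among them, act at CHR promoter elements and NF-Y at CCAAT boxes. That shared timing is why their RNA is widely read as a sign of cycling cells. In a bulk sample, a larger share of cycling cells and more RNA per cycling cell cannot be told apart.

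Among spleen Tregs the mitosis genes were highest in cells tagged around birth and lowest in cells tagged in adults, although both were sorted from mice of the same age. The median log2 level of the 40 genes lay between 8.40 and 8.48 on the 3 perinate-tagged arrays and between 6.53 and 6.69 on the 3 adult-tagged arrays. The untagged bulk lay between these, at 6.95, 7.74 and 7.69 after perinatal tamoxifen (replicates 3, 4 and 5) and at 7.16, 7.54 and 7.68 after adult tamoxifen. In the thymus the same median was 8.19 to 8.41 in perinates and 7.04 to 7.10 in adults. No array of a perinate-tagged or perinate thymus group fell into the range of its adult counterpart. By group mean, 30 of the 40 genes were highest in perinate-tagged Tregs, 9 in perinate thymus Tregs and 1, Smc4, in adult-tagged Tregs. The lowest mean was that of adult-tagged Tregs in 36 genes and of adult thymus Tregs in 4. The highest group stood clear of the next, with no array overlapping, in 13 genes where it was perinate-tagged and in Smc4. The lowest group did so in 17 genes where it was adult-tagged and in Smc4, where it was adult thymus, so the order of neighbouring groups was often within their spread.

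**Figure D1:**
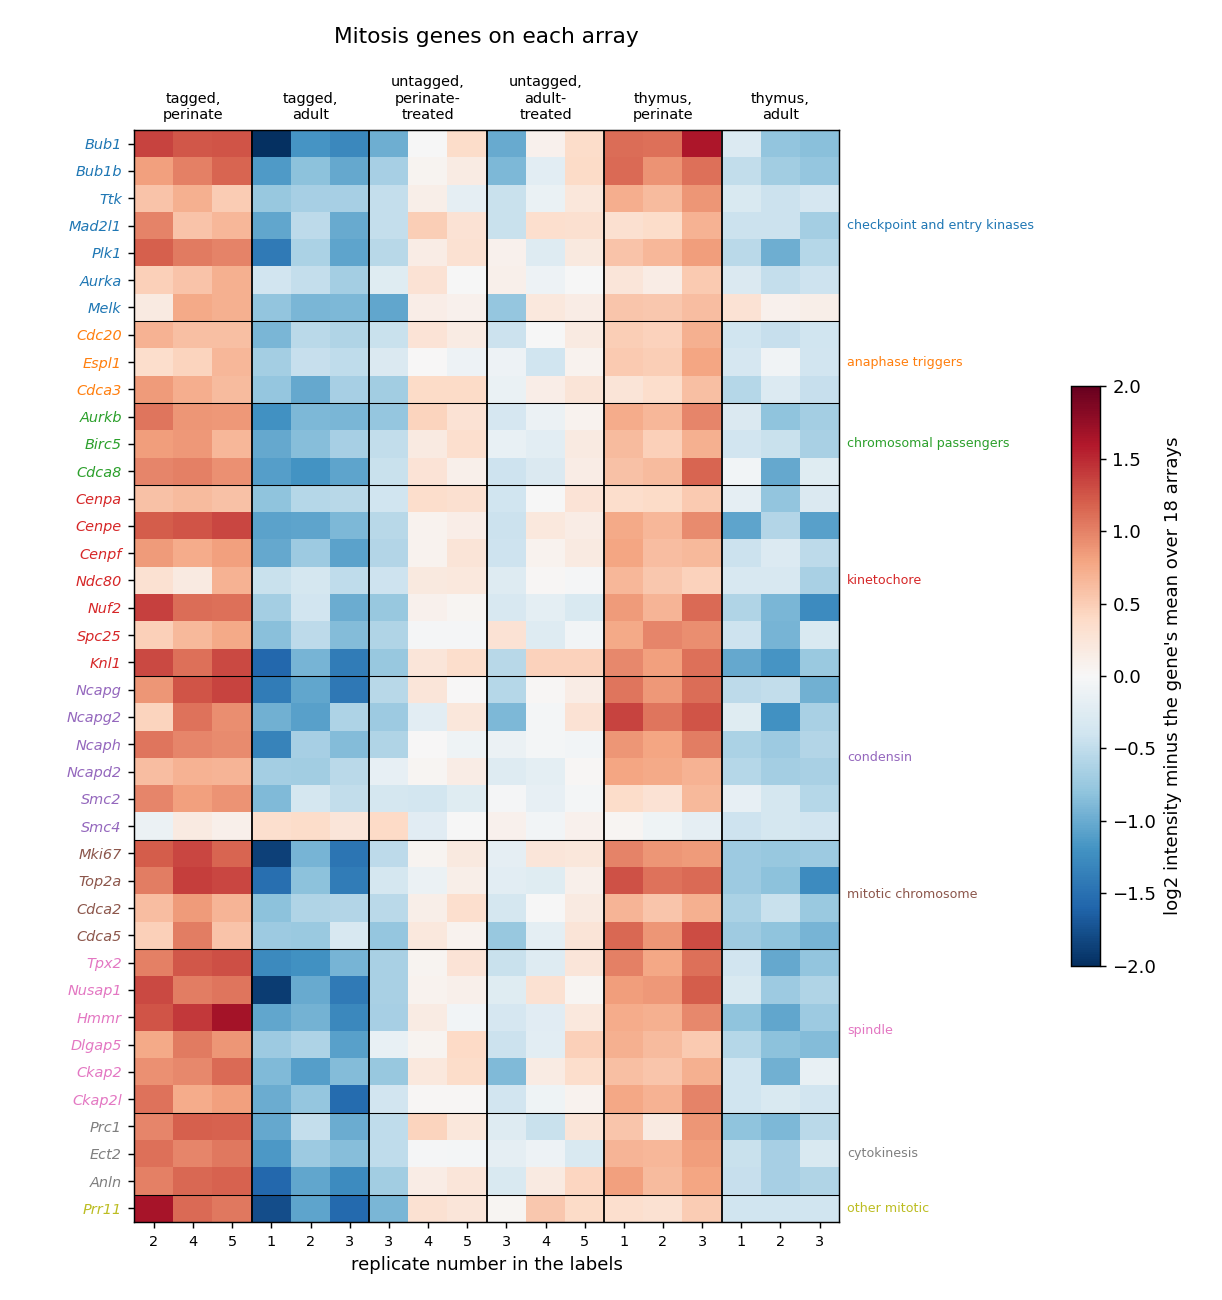
Log2 intensity of each of the 40 mitosis genes minus that gene's mean over 18 arrays (colour scale, red higher and blue lower); columns are arrays with their replicate numbers, rows are genes ordered by role. The perinate-tagged and perinate thymus columns are red and the adult-tagged and adult thymus columns blue in nearly every gene, Smc4 is pale throughout, and replicate 3 of both untagged groups is bluer than its group.

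Several facts about the arrays stand beside these values. Treg markers averaged 11.6 to 12.2 (log2) in every group. Of 7 Treg markers 1 was called lower and none higher in perinate-tagged than adult-tagged Tregs, with log2 differences from -0.39 to 0.53. Rag1, Rag2, Ptcra and Dntt, markers of immature thymocytes, lay below the expression filter (the median of all values, log2 7.05). In the marker lists of other cells 6 of 7 B cell genes, 7 of 8 myeloid genes and 3 of 4 erythroid genes lay below the filter in the spleen arrays. Of those above it, Cd79b (B cell) was higher in perinate-tagged than adult-tagged Tregs by 0.66 and Cd68 (myeloid) by 0.54 on the log2 scale, while Gata1 (erythroid) differed by -0.20 and was not called. Of 5 tested stroma and epithelium genes Epcam was higher by 1.07, and Col1a1, Col3a1, Krt8 and Pecam1 differed by -0.28, -0.36, -0.35 and -0.03 without a call. The part of these cells in the results was not tested. Cd8a and Cd8b1, listed with the immature thymocyte genes, were above it in thymus, Cd8a at 9.75 in perinates and 10.36 in adults and Cd8b1 at 8.98 and 9.27. Cd8b1 was also above it in spleen, at 7.79 to 7.99. One perinate-tagged array labelled female, replicate 2, read 9.79 for the Y-linked Eif2s3y, against 3.95 to 4.90 on the other 11 spleen arrays. Its Xist level was 8.38, against 11.86 to 12.41 on those 11 arrays and 5.70 to 6.30 on the male thymus arrays. Without that array 38 of 39 genes were still called in the tagged comparison. The interquartile range of all values was wider in perinate-tagged than adult-tagged arrays (3.05 ± 0.09 against 2.65 ± 0.21, SD, n = 3) and in perinate than adult thymus (3.03 ± 0.03 against 2.53 ± 0.39); its part in the results was not tested beyond the fits that carry it as a covariate. Transcripts absent from one sex read 3.95 to 6.30, which is taken as background. The mean of 12 mitosis genes in adult-tagged Tregs lay at or below that upper value (Bub1, Bub1b, Ttk, Cenpe, Nuf2, Spc25, Ncapg, Ncapg2, Hmmr, Ckap2l, Prc1 and Anln), as did 7 in adult thymus Tregs, and their differences may understate the change.

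Promoter windows are given here because these genes moved together. RefSeq (GRCm38.p6) gave a promoter for 35 of the 40 genes; Aurkb, Cdca2, Tpx2, Dlgap5 and Smc4 had no entry. Within the 250 bases before the start, on either strand, the CHR letters TTTGAA were present in 13 of 35 genes (37.1%), against 18.3% of 27025 genes, and CCAAT in 24 (68.6%), against 37.5%. At least 2 CCAAT copies stood in 16 (45.7%), against 11.5%, and both motifs in 11 (31.4%), against 6.5%. A match of one motif can share an end base with a match of the other, and a match is not a bound site. The windows of 5 genes are shown 5′ to 3′ on the gene's strand, for the proliferation markers Mki67 and Top2a, for an anaphase trigger and a condensin subunit with both motifs, and for Nusap1, which has neither and rose as much. Capitals mark TTTGAA or CCAAT and their reverse complements TTCAAA or ATTGG.
Mki67, chr7:135716380-135716629, - strand: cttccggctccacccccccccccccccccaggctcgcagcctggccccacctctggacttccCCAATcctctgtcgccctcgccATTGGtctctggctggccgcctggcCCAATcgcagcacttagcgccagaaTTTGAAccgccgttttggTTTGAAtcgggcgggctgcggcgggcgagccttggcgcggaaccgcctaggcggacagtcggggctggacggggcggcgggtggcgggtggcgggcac
Top2a, chr11:99024190-99024439, - strand: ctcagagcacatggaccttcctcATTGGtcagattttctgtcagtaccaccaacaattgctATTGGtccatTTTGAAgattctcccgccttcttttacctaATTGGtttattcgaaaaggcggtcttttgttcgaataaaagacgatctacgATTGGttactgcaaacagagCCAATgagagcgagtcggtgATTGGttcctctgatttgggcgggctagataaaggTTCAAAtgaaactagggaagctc
Cdc20, chr4:118437344-118437593, - strand: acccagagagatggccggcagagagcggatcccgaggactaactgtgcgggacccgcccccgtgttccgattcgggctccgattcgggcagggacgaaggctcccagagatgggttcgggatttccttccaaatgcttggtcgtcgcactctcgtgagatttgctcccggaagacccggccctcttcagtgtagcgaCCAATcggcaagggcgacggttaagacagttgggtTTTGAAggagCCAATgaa
Ncapg, chr5:45669675-45669924, + strand: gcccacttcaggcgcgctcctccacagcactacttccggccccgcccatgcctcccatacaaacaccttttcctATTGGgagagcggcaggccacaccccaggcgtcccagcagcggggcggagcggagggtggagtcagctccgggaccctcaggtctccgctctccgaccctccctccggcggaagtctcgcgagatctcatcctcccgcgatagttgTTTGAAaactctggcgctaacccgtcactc
Nusap1, chr2:119618048-119618297, + strand: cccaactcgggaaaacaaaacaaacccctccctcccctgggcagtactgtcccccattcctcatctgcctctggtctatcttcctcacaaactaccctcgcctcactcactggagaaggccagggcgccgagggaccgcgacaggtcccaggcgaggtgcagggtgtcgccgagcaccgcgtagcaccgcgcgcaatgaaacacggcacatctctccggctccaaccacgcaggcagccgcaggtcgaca
Mki67 holds 2 CHR matches and 3 CCAAT matches, and Top2a holds 2 and 6. Cdc20 holds a CHR match 18 bases before the start and Ncapg one 30 bases before it. The presence of the letters did not sort the genes by response: the median log2 difference between perinate-tagged and adult-tagged Tregs was 1.95 in the 13 genes with TTTGAA and 1.96 in the 21 tested genes without it. It was 1.96 in 23 tested genes with CCAAT and 1.71 in 11 without. Between perinate and adult thymus Tregs the median was 1.287 with TTTGAA and 1.325 without. For CCAAT the thymus order was the other way, 1.23 with and 1.515 without.

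Perinate-tagged against adult-tagged Tregs asks what distinguishes cells that began as Tregs around birth from those that were Tregs in adult life. Of the 39 mitosis genes that passed the filter, 38 rose and none fell (limma, Benjamini-Hochberg over 10350 genes, adjusted p under 0.05), against 16% of all genes tested called higher. Their median log2 difference was 1.95, with a range of -0.26 to 2.81, against 0.12 for all genes, and 37 were at least 2-fold higher. In 38 of the 39 the groups did not overlap, with all perinate-tagged arrays higher, against 33.2% of all genes. Only 16 of the 39 reached the filter in both tagged groups, the rest not in adult-tagged Tregs, so that they entered through groups where they are higher; 15 of those 16 were called, against 15.1% of genes filtered in that way. Quantile normalization moved the median of all genes from 0.12 to -0.04 and the share of higher among all calls from 82.1% to 54.3%, and 38 mitosis genes were still called higher. Ttk, the checkpoint kinase also called Mps1, did not pass the filter and rose by 1.29 ± 0.17 (SE) when no filter was applied.

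Among the genes of the mitotic chromosome all 4 rose. Mki67 encodes Ki-67, which coats mitotic chromosomes and is the usual marker of cycling cells. Its log2 levels were 10.91, 11.03 and 10.86 on perinate-tagged arrays (replicates 2, 4 and 5) and 7.83, 8.76 and 8.23 on adult-tagged arrays (replicates 1, 2 and 3). In the untagged bulk (replicates 3, 4 and 5) they were 9.17, 9.74 and 9.89 after perinatal and 9.52, 9.93 and 9.92 after adult tamoxifen. Every perinate-tagged array was above, and every adult-tagged array below, all 6 bulk arrays. The tagged difference was 2.65 ± 0.22 (SE), a 6.29-fold change (adjusted p = 2.82e-06). Top2a, the topoisomerase that untangles sister chromatids, read 9.74, 10.09 and 10.05 (log2) on perinate-tagged and 7.21, 7.89 and 7.31 on adult-tagged arrays. Its bulk levels were 8.36, 8.60 and 8.83 after perinatal and 8.50, 8.48 and 8.83 after adult tamoxifen, between the tagged groups without overlap. Top2a rose by 2.49 ± 0.18 (SE), or 5.62-fold (adjusted p = 2.01e-06). Cdca2, which brings a phosphatase to anaphase chromatin, rose by 1.38 ± 0.19 (SE), and Cdca5 (sororin), which protects cohesin until anaphase, by 1.28 ± 0.27 (SE).

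**Figure D2:**
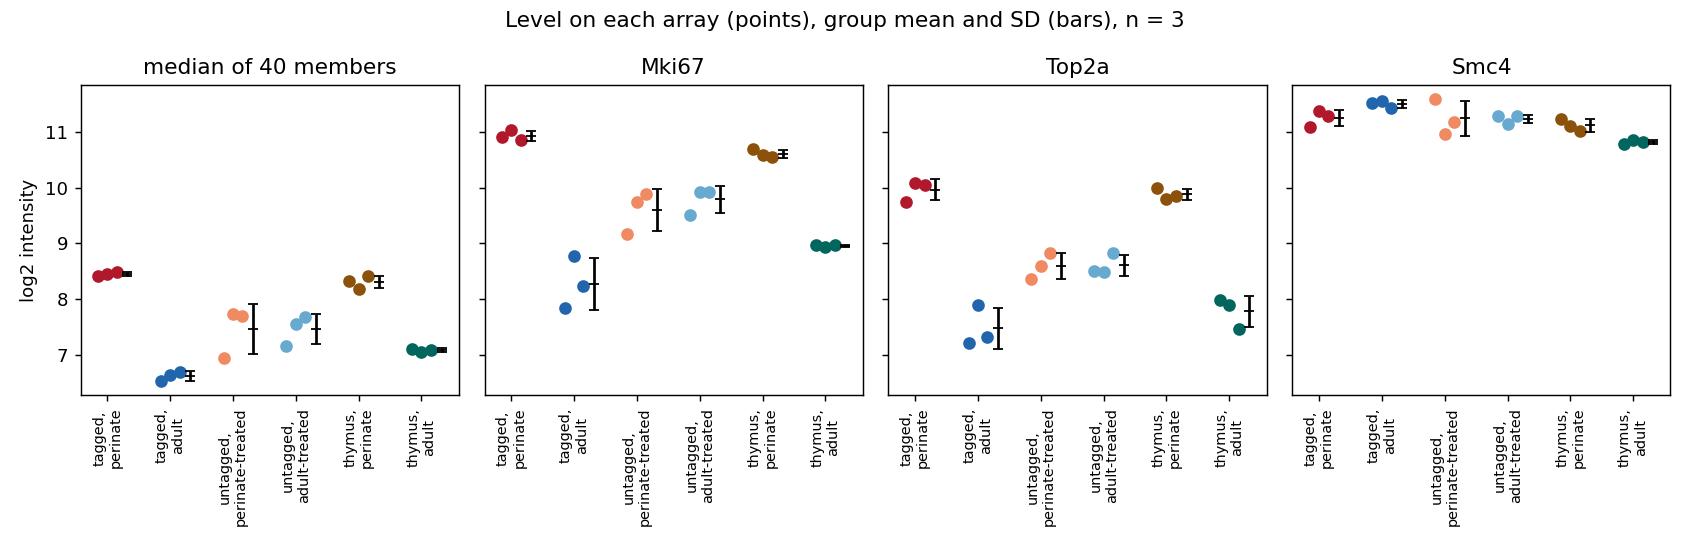
Log2 intensity on each array (points) with group mean and SD (bars, n = 3) for the median of the 40 genes and for Mki67, Top2a and Smc4 in the 6 groups. Among the spleen groups the perinate-tagged points lie highest and the adult-tagged points lowest for the median, Mki67 and Top2a. For Smc4 the adult-tagged points, at 11.43 to 11.56, lie above the perinate-tagged ones, at 11.09 to 11.37.

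All 6 tested genes of the checkpoint and entry group, kinases apart from Mad2l1, rose, each of them at least 2-fold. Bub1 sits at unattached kinetochores and recruits other checkpoint proteins. Its log2 levels were 8.62, 8.51 and 8.51 on perinate-tagged and 5.14, 6.07 and 5.98 on adult-tagged arrays, the latter within the background range. The bulk read 6.27, 7.25 and 7.62 after perinatal and 6.25, 7.34 and 7.62 after adult tamoxifen, with replicate 3 lowest in both. Bub1 rose by 2.81 ± 0.35 (SE), or 7.04-fold (adjusted p = 7.36e-05), and since its adult-tagged mean lies in the background the change may be larger. Mad2l1, the protein that binds and holds Cdc20, read 10.31, 9.89 and 9.99 on perinate-tagged and 8.27, 8.79 and 8.30 on adult-tagged arrays (log2). In the bulk it read 8.84, 9.81 and 9.61 after perinatal and 8.88, 9.66 and 9.64 after adult tamoxifen, and the perinate-tagged arrays were clear of the adult-tagged ones. Mad2l1 rose by 1.61 ± 0.25 (SE) (adjusted p = 0.000536), and by 1.35 with the interquartile range as a covariate, where it was not called. Bub1b, part of the complex that inhibits the anaphase ligase, rose by 1.98 ± 0.27 (SE), and Plk1, the kinase of mitotic entry, by 2.12 ± 0.22 (SE). Melk, a kinase of cycling cells, rose by 1.41 ± 0.30 (SE) and Aurka, which matures centrosomes, by 1.11 ± 0.14 (SE).

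The anaphase triggers Cdc20 and Espl1, and Cdca3, which was grouped with them, rose by less than the median of the mitosis genes. Cdc20 read 8.59, 8.50 and 8.49 on perinate-tagged and 6.98, 7.36 and 7.30 on adult-tagged arrays (log2). Its bulk levels were 7.45, 8.16 and 8.05 after perinatal and 7.46, 7.89 and 8.08 after adult tamoxifen. The tagged groups did not overlap, and the bulk lay between them. Cdc20 rose by 1.31 ± 0.19 (SE), or 2.48-fold (adjusted p = 0.000288). Cdca3, which helps degrade the mitotic brake Wee1, read 8.52, 8.40 and 8.31 on perinate-tagged and 6.90, 6.66 and 7.02 on adult-tagged arrays (log2), with no overlap. In the bulk Cdca3 read 6.98, 8.06 and 8.07 after perinatal and 7.55, 7.81 and 7.93 after adult tamoxifen. It rose by 1.56 ± 0.23 (SE) (adjusted p = 0.000328). Espl1, the separase that cuts cohesin, rose by 1.04 ± 0.14 (SE).

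The chromosomal passenger complex corrects wrong attachments at the inner centromere, and all 3 measured subunits rose. Its kinase Aurkb read 9.77, 9.58 and 9.56 on perinate-tagged and 7.48, 7.79 and 7.77 on adult-tagged arrays (log2). The bulk read 7.92, 9.14 and 8.99 after perinatal and 8.36, 8.58 and 8.77 after adult tamoxifen. Its lowest value after perinatal tamoxifen, replicate 3, was near the adult-tagged range and did not enter it. Aurkb rose by 1.95 ± 0.24 (SE), or 3.88-fold (adjusted p = 5.98e-05). Cdca8 (borealin), which anchors the complex, read 8.57, 8.60 and 8.51 on perinate-tagged and 6.50, 6.40 and 6.54 on adult-tagged arrays (log2), a tight pair of groups far apart. Its bulk levels were 7.16, 7.87 and 7.69 after perinatal and 7.18, 7.30 and 7.74 after adult tamoxifen. Cdca8 rose by 2.08 ± 0.18 (SE) (adjusted p = 3.22e-06), and Birc5 (survivin) by 1.64 ± 0.19 (SE).

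All 7 kinetochore genes rose. Knl1, the scaffold to which Bub1 docks, read 9.43, 9.21 and 9.45 on perinate-tagged and 6.55, 7.19 and 6.72 on adult-tagged arrays (log2). The bulk read 7.37, 8.36 and 8.47 after perinatal and 7.57, 8.58 and 8.58 after adult tamoxifen, between the tagged groups. Knl1 rose by 2.54 ± 0.29 (SE), or 5.84-fold (adjusted p = 3.45e-05). Cenpa, the histone variant that marks the centromere in and out of mitosis, read 9.72, 9.76 and 9.71 on perinate-tagged and 8.32, 8.56 and 8.58 on adult-tagged arrays (log2). In the bulk it read 8.73, 9.49 and 9.45 after perinatal and 8.74, 9.12 and 9.41 after adult tamoxifen. The tagged groups were clear of each other, but the step was smaller than that of Knl1. Cenpa rose by 1.24 ± 0.20 (SE), or 2.37-fold (adjusted p = 0.000557), and by 0.95 with that covariate, where it was not called. The motor Cenpe rose by 2.28 ± 0.19 (SE) and Cenpf by 1.75 ± 0.20 (SE). Of the Ndc80 complex, which grips microtubules, Nuf2 rose by 1.88 ± 0.20 (SE), Spc25 by 1.37 ± 0.18 (SE) and Ndc80 by 0.83 ± 0.17 (SE); Ndc80 was the only gene called higher that stayed under 2-fold.

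The condensin genes among the 40 split, with 5 of 6 rising. Ncapg, a subunit of condensin I, read 8.34, 8.73 and 8.81 on perinate-tagged and 6.06, 6.43 and 6.03 on adult-tagged arrays (log2). The bulk read 6.92, 7.71 and 7.47 after perinatal and 6.90, 7.48 and 7.61 after adult tamoxifen, between the tagged groups. Ncapg rose by 2.45 ± 0.22 (SE), or 5.48-fold (adjusted p = 4.97e-06), from an adult-tagged mean in the background. The other condensin I subunits Ncaph and Ncapd2 rose by 1.96 ± 0.18 (SE) and 1.30 ± 0.12 (SE), and Ncapg2 of condensin II by 1.71 ± 0.28 (SE). Ncapd3 and Ncaph2, also of condensin II, were measured outside the 40 genes and were not called in this comparison. Smc2, an ATPase shared by both condensins, rose by 1.47 ± 0.14 (SE). Smc4, its partner in the same ring, went the other way: it read 11.09, 11.37 and 11.29 on perinate-tagged and 11.53, 11.56 and 11.43 on adult-tagged arrays (log2). Its bulk levels were 11.59, 10.97 and 11.18 after perinatal and 11.28, 11.15 and 11.28 after adult tamoxifen, overlapping the perinate-tagged arrays. All adult-tagged Smc4 arrays were above the perinate-tagged ones, by a log2 difference of -0.26 ± 0.15 (SE), which did not pass the test (adjusted p = 0.232).

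Spindle and furrow genes rose without exception, 6 of 6 and 3 of 3. Nusap1, which bundles spindle microtubules near chromosomes, read 10.09, 9.79 and 9.83 on perinate-tagged and 6.87, 7.77 and 7.36 on adult-tagged arrays (log2). The bulk read 8.12, 8.83 and 8.88 after perinatal and 8.53, 9.08 and 8.80 after adult tamoxifen. Every bulk array lay between the tagged groups. Nusap1 rose by 2.57 ± 0.23 (SE), or 5.95-fold (adjusted p = 4.98e-06). Hmmr rose by 2.54 ± 0.20 (SE), Tpx2, the activator of Aurka, by 2.32 ± 0.22 (SE), and Ckap2l, Ckap2 and Dlgap5 by 1.99, 1.96 and 1.70.

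Anln (anillin), the scaffold of the contractile ring, read 8.00, 8.14 and 8.17 on perinate-tagged and 5.42, 5.94 and 5.72 on adult-tagged arrays (log2), the latter in the background. In the bulk it read 6.30, 7.13 and 7.23 after perinatal and 6.69, 7.16 and 7.41 after adult tamoxifen. Anln rose by 2.41 ± 0.23 (SE) (adjusted p = 7.21e-06). Ect2, which switches on RhoA at the furrow, read 9.33, 9.21 and 9.29 on perinate-tagged and 7.09, 7.51 and 7.38 on adult-tagged arrays (log2), and 7.72, 8.21 and 8.19 and 8.06, 8.13 and 7.93 in the bulk after perinatal and adult tamoxifen. Neither gene's tagged groups touched the bulk. Ect2 rose by 1.95 ± 0.15 (SE) (adjusted p = 2.1e-06), and Prc1, which bundles the central spindle, by 1.95 ± 0.23 (SE). Prr11, a proline-rich protein of late cell cycle, read 9.99, 9.48 and 9.39 on perinate-tagged and 6.57, 7.28 and 6.79 on adult-tagged arrays (log2). The bulk read 7.42, 8.64 and 8.57 after perinatal and 8.38, 8.88 and 8.72 after adult tamoxifen. It rose by 2.74 ± 0.28 (SE), or 6.69-fold (adjusted p = 1.35e-05).

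The untagged bulk asks whether these genes differ with the time of tamoxifen in cells that were not recombined. It does not isolate the timing of the drug in tagged cells. The time from tamoxifen to sampling also differs between the windows and cannot be told apart from them. None of the 39 changed between untagged Tregs after perinatal and after adult tamoxifen, where 0% of the 10350 genes passed the test; 380 of them had an unadjusted p under 0.05 and the smallest adjusted p was 0.995 (limma). The median log2 difference of the mitosis genes was 0.01, with a range of -0.45 (Prr11) to 0.21 (Prc1). Of the 39, 33 reached the filter in either untagged group and 28 in both. The genes below it in both were tested only because a tagged group reached it. Mki67 differed by -0.19 ± 0.22 (SE), Top2a by 0.00 ± 0.18 (SE) and Bub1 by -0.02 ± 0.35 (SE). In 1 of the 39 genes, Smc2, all arrays after perinatal tamoxifen were lower (-0.25 ± 0.14 (SE)), against 1.46% of all genes with such non-overlap. Replicate 3 of both untagged groups read low: it was the lowest of its group in 38 of 40 genes after perinatal and 30 of 40 after adult tamoxifen. Ctla4, a Treg activation marker, was also lower on those arrays, at 10.46 and 10.44 against 11.6 to 11.9 on the other untagged arrays. The tagged arrays were below these others too, at 10.29 to 10.41 in adult-tagged and 10.64 to 11.04 in perinate-tagged Tregs.

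The difference between tagged and untagged responses was itself tested. It was larger in the tagged cells for 36 of the 39 genes, against 4.29% of all genes tested, with a median of 1.81 (log2). Only 16 of the 39 reached the filter in both tagged groups, and the others entered the fit through groups where they are higher. Calls among genes at the filter in every group were not counted for this test. Prr11 had a difference of differences of 3.19 ± 0.40 (SE) (adjusted p = 0.000289). Mki67 followed at 2.84 ± 0.31 (SE) (adjusted p = 0.000132), and Bub1 at 2.84 ± 0.50 (SE) (adjusted p = 0.00338). Nusap1 gave 2.77, Knl1 2.72 and Espl1, the smallest among the 36, 1.02. Cdca5 (1.21), Ndc80 (0.75) and Smc4 (-0.27) did not pass. Cdc20 lost its call with a replicate block (0.86) or without adult-tagged replicate 1. Mad2l1 lost it with the interquartile range as a covariate (1.44) and without adult-tagged replicate 1 or 3 or untagged adult replicate 5, at 1.46 to 1.51. Cenpa lost it with the block (0.73), the covariate (0.95), no filter, and without any 1 tagged array or untagged adult replicate 4 or 5, at 0.95 to 1.15.

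Setting tagged cells against the bulk of the same treatment put the tagged groups on opposite sides of it. After perinatal tamoxifen 31 of 39 genes were higher in tagged than untagged Tregs, against 5.49% of all genes, with a median log2 difference of 1.06. Hmmr had the largest, 1.63 ± 0.20 (SE) (adjusted p = 0.000306), followed by Bub1, 1.50 ± 0.35 (SE), and Prr11, 1.41 ± 0.28 (SE). In 37 of 39 the arrays did not overlap, against 19.7% of all genes. Of the 39, 30 reached the filter in both groups compared, the rest not in untagged Tregs. Among these 30, 23 were called, against 5.01% of genes filtered in that way, and 28 did not overlap, against 20.3%. Mad2l1, Melk, Cdc20, Cdca3, Cenpa, Ndc80, Cdca5 and Smc4 did not pass, with log2 differences from 0.00 (Smc4) to 0.85 (Cdca5). Small nucleolar RNAs (50 genes) had lower medians on the perinate-tagged arrays, 8.14 to 8.53, than on the matching untagged ones, 8.70 to 9.54 (log2), and their part in the result was not tested. The count fell to 20 without perinate-tagged replicate 4 and to 17 without replicate 5.

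After adult tamoxifen the tagged cells read lower than the bulk. The median log2 difference was -0.83, and 8 of 39 genes fell (Anln, Cdca8, Cenpe, Mki67, Ncapg, Nusap1, Prr11 and Top2a), against 0.271% of all genes called lower. Those 8 stood among 28 genes called in all. Prr11 fell, with a log2 difference of -1.78 ± 0.28 (SE) (adjusted p = 0.0257), then Mki67, -1.51 ± 0.22 (SE) (adjusted p = 0.0257), and Nusap1, -1.47 ± 0.23 (SE) (adjusted p = 0.0257). In 34 of 39 genes all adult-tagged arrays lay below all untagged ones, against 10.3% of all genes. Of the 39, 31 reached the filter in either of the 2 groups compared and the other 8 only in perinate-tagged Tregs or the other bulk. The groups did not overlap in 29 of those 31, against 10.1% of genes filtered in that way, and all 8 called genes were among them. Only 16 genes reached the filter in both of the groups compared. Of these 16, 3 were called, against 0.129% of genes filtered in that way, and 15 did not overlap, against 9.31%. The count of 8 rested on single arrays: it was 0 without adult-tagged replicate 1 or 3, or without untagged replicate 4 or 5 of the same treatment, and 30 without untagged replicate 3. It was 5 without adult-tagged replicate 2 or any 1 perinate-tagged replicate, and 24 without replicate 3 of the untagged perinatal group. With the interquartile range as a covariate 0 passed. The comparisons share arrays: adult-tagged and perinate-tagged arrays also enter the tagged comparison, so the 3 do not give separate evidence.

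**Figure D3:**
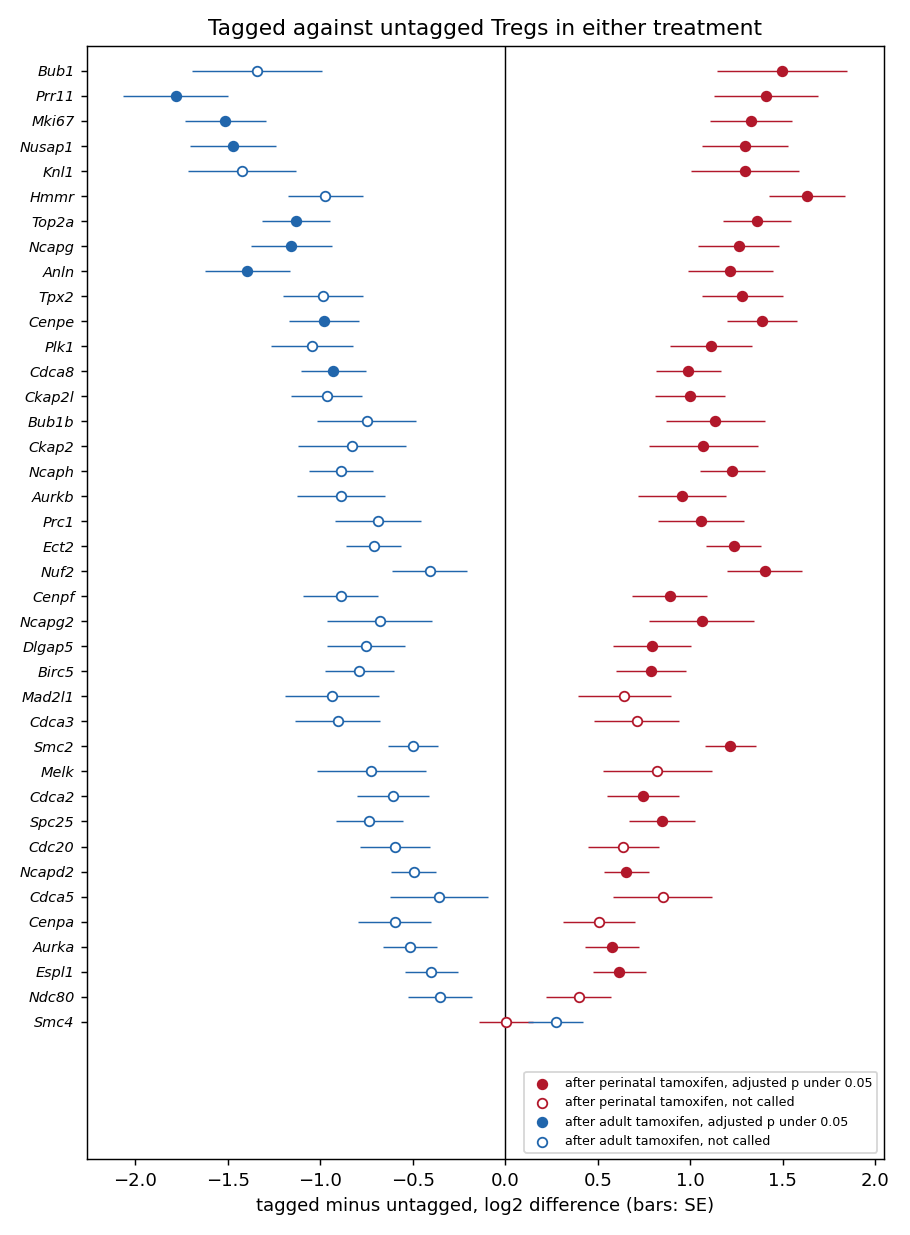
Log2 difference between tagged and untagged Tregs (points; bars are SE) after perinatal tamoxifen (red) and after adult tamoxifen (blue) for the 39 tested genes, ordered by the tagged difference; filled points have an adjusted p under 0.05. Red points lie right of 0, with a median of 1.06, and blue points left, with a median of -0.83, while Smc4 sits near 0 or to the right.

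In the thymus the mitosis genes were also higher in perinates. In 4-day-old against 5-week-old thymus Tregs 38 of 39 genes rose, against 18.5% of all genes tested called higher (limma, 10650 genes). The median log2 difference was 1.33, against 0.17 for all genes, and 28 were at least 2-fold higher. In all 40 genes, including Ttk, the 3 perinate arrays lay above the 3 adult arrays, and non-overlap in that direction occurred in 36.9% of all genes. In 21 genes both thymus groups reached the filter, and 20 of these were called, against 18.3% of genes filtered in that way. Quantile normalization moved the median of all genes from 0.17 to -0.003 and the share of higher among all calls from 76% to 53.8%, with 37 mitosis genes still higher. Mki67 read 10.69, 10.58 and 10.54 on perinate and 8.97, 8.94 and 8.96 on adult arrays (log2, replicates 1, 2 and 3). Top2a read 9.99, 9.80 and 9.86 on perinate and 7.98, 7.89 and 7.46 on adult arrays. Top2a rose by 2.10 ± 0.16 (SE), or 4.29-fold (adjusted p = 0.000308). Mki67 rose by 1.65 ± 0.11 (SE) (adjusted p = 0.000202). Among markers of other cells Gata1 (erythroid) was higher in perinate thymus by 0.49 and Pecam1 (endothelium) by 0.56, Cd8a was lower by a log2 difference of -0.61, and the other tested markers were not called; their part in the result was not tested.

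Other roles moved alike in the thymus. Bub1 read 8.37, 8.35 and 8.87 on perinate and 6.98, 6.47 and 6.43 on adult arrays, a rise of 1.91 ± 0.20 (SE) (log2). Knl1 read 9.08, 8.94 and 9.23 and 7.10, 6.94 and 7.38, a rise of 1.94 ± 0.15 (SE). Ncapg, with 8.54, 8.33 and 8.58 on perinate and 6.94, 6.97 and 6.51 on adult arrays, rose by 1.68 ± 0.16 (SE). These 3 genes, of checkpoint, kinetochore and condensin, had groups more than 1 log2 unit apart. Nusap1 read 9.60, 9.64 and 9.98 and 8.46, 8.04 and 8.17 and rose by 1.52 ± 0.16 (SE). Anln read 7.80, 7.63 and 7.78 and 6.52, 6.33 and 6.38 and rose by 1.33 ± 0.12 (SE). Ect2 read 8.92, 8.89 and 9.08 and 7.79, 7.57 and 7.93 and rose by 1.20 ± 0.13 (SE). The spindle and furrow genes were thus higher on every perinate array too.

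The other leading genes rose in thymus by between 0.79 (Prr11) and 1.38 (Aurkb), Smc4 apart. Aurkb read 9.43, 9.36 and 9.66 on perinate and 8.41, 7.89 and 8.01 on adult thymus arrays and rose by 1.38 ± 0.16 (SE) (log2). Cdca8 read 8.18, 8.23 and 8.76 and 7.54, 6.57 and 7.36 and rose by 1.23 ± 0.27 (SE). Adult replicate 1 of both lay above the other 2 adult arrays. Mad2l1 read 9.64, 9.69 and 10.01 and 8.89, 8.88 and 8.64 and rose by 0.98 ± 0.14 (SE) (log2). Cdc20 read 8.39, 8.35 and 8.61 and 7.50, 7.43 and 7.49 and rose by 0.98 ± 0.12 (SE). Cdca3 read 7.94, 8.02 and 8.28 and 7.11, 7.40 and 7.22 and rose by 0.84 ± 0.14 (SE). Mad2l1, Cdc20 and Cdca3 thus moved by about 1 log2 unit or less. Cenpa read 9.48, 9.51 and 9.65 and 8.94, 8.34 and 8.85 and rose by 0.83 ± 0.17 (SE) (log2). Prr11 read 8.68, 8.65 and 8.84 and 7.93, 7.94 and 7.94 and rose by 0.79 ± 0.11 (SE). Smc4 read 11.24, 11.11 and 11.01 and 10.79, 10.85 and 10.82, a difference of 0.30 ± 0.11 (SE) that did not pass (adjusted p = 0.0823) although the arrays did not overlap. The call of Cdca8 was lost with array weights (0.92), with the interquartile range as a covariate (0.55), and without perinate replicate 1 (1.33) or 3 (1.04), that of Cenpa without any 1 perinate replicate (0.78 to 0.87), and Smc4 passed without adult replicate 2 (0.31).

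**Figure D4:**
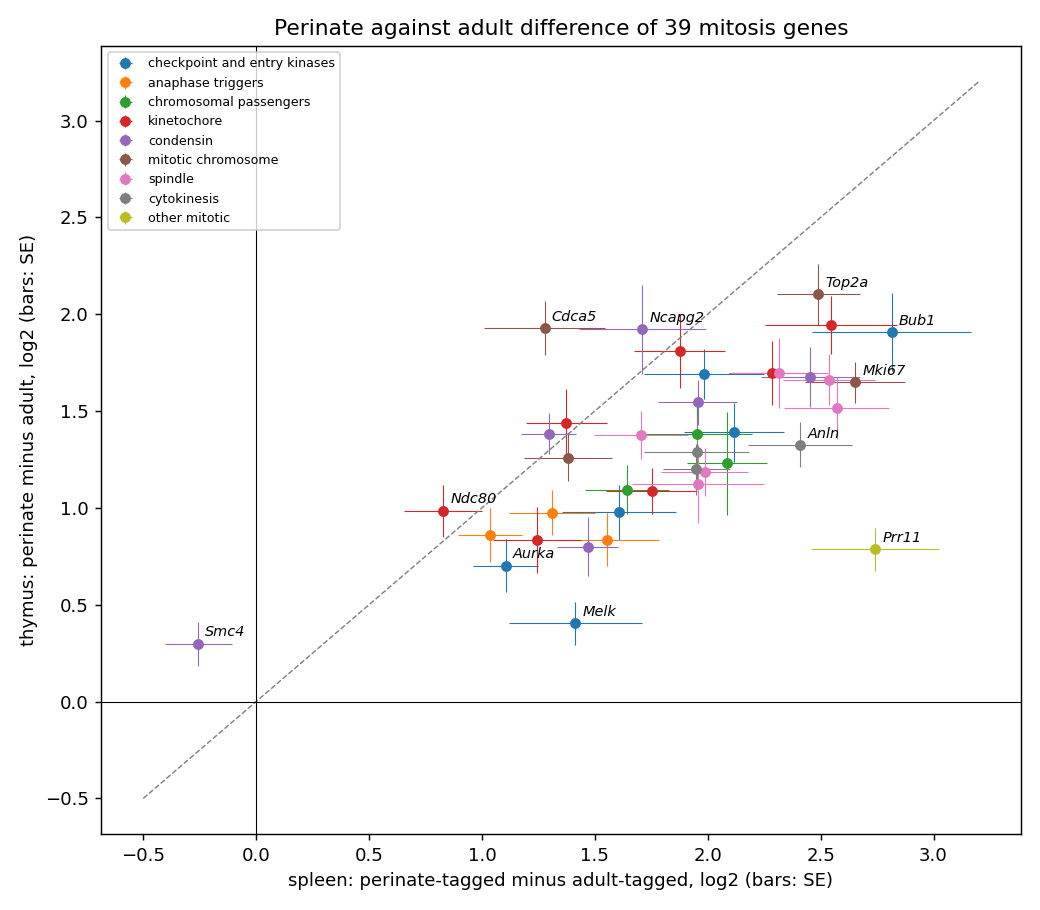
Log2 difference of each of 39 genes between perinate-tagged and adult-tagged spleen Tregs (horizontal) and between perinate and adult thymus Tregs (vertical); points are coloured by role, bars are SE and the dashed line marks equal differences. Most points lie right of the line, Prr11 farthest (2.74 in spleen, 0.79 in thymus), while Smc4 is left of 0 in spleen.

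Testing the spleen difference against the thymus difference, 4 of 39 genes were larger in spleen (Prr11, Anln, Mki67 and Ect2), against 3.89% of all genes tested. Prr11 exceeded its thymus difference by 1.96 ± 0.36 (SE) (adjusted p = 0.00217). Anln exceeded it by 1.08 ± 0.30 (SE) (adjusted p = 0.0345), Mki67 by 1.01 ± 0.28 (SE) (adjusted p = 0.0383) and Ect2 by 0.75 ± 0.20 (SE) (adjusted p = 0.0341). The median of all 39 was 0.60 (log2), and 33 had the larger difference in spleen. Across the 39 genes the 2 differences had a Pearson r of 0.627 and a Spearman rho of 0.549, as a description over genes from separate arrays, and 0.541 and 0.513 without Smc4. The count was 1 without adult-tagged replicate 1 or 3, perinate-tagged replicate 4 or 5, or perinate thymus replicate 1 or 2, 2 without perinate-tagged replicate 2 or adult thymus replicate 3, 7 without adult-tagged or adult thymus replicate 2, and 10 without replicate 3 of the untagged perinatal group. It was 31 with array weights, 28 of them larger and 3 smaller in spleen, a setting under which 5085 of 10889 genes were called. With a replicate block the median of the 39 fell to 0.22.

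Other genes of the cell cycle were read in the same comparisons. All 11 tested mitotic kinesins rose in perinate-tagged Tregs, with Kif11 at 2.60 and Kif23 at 2.21 (log2), and 12 of 12 in perinate thymus. All 29 tested DNA replication genes rose in the tagged comparison, including Rrm2, which makes deoxynucleotides, at 2.27, and the polymerase Pole at 1.70; in thymus 25 of 29 rose. Of the other kinetochore genes 17 of 24 rose in the tagged comparison, with Ska3 at 2.01 and Sgo2a at 1.98, and 14 of 25 in thymus. Of the genes that control entry and exit, 17 of 26 rose, with Ccnb2 and Ccna2 both at 2.56, and 1 fell, Lin52 at -0.39; in thymus 15 of 26 rose. Of the other condensin and cohesin genes 2 of 14 rose in the tagged comparison, Esco2 at 2.28 and Rad21 at 0.46, and 7 of 14 in thymus. Their median difference was 0.23 in the tagged comparison and 0.39 in thymus. Among 14 quiescence genes and cell cycle brakes 4 rose, including Cdkn2c at 1.33 and Cdkn2d at 0.63, and none fell, in the tagged comparison; in thymus 2 rose and 1 fell. Their medians were 0.19 and 0.11. These counts stand against 16% of all genes called higher in the tagged comparison and 18.5% in thymus, so 2 of 14 lies near that share.

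**Figure D5:**
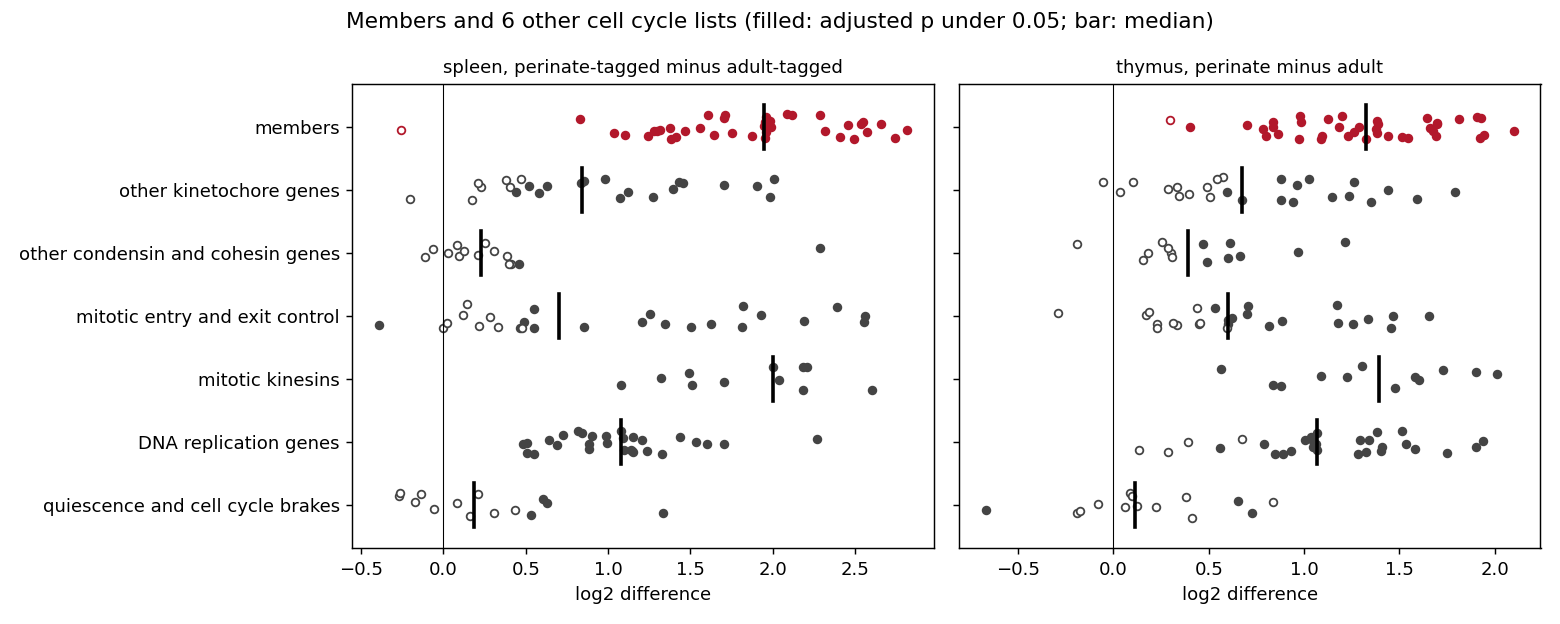
Log2 difference of each tested gene (points; filled where the adjusted p is under 0.05) in the mitosis genes and 6 other cell cycle lists, for perinate-tagged minus adult-tagged spleen Tregs (left) and perinate minus adult thymus Tregs (right); the black bar is the list median. The mitosis genes and kinesins reach medians near 2 in spleen, while the cohesin and quiescence lists stay near 0.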

How the data were processed

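Tregs of 6 groups of 3 were profiled on Affymetrix Mouse Gene 1.0 ST arrays from TriZol-extracted RNA. The deposited table holds linear intensity values per probe set, from 6.81 to 18850; per the submitters' processing notes the authors used RMA and Affymetrix Power Tools (versions not given in the sources used here). The interquartile range still differed between the deposited arrays. Of 24922 probe sets, 21425 carried 1 symbol, 1399 several and 2098 none, and only the first were used; 21347 were matched to RefSeq by Entrez identifier with 0 symbols changed, and the probe set with the highest mean over 18 arrays stood for each of 921 genes with several.

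Log2 intensities without a pseudocount were fitted with limma 3.58.1 (R 4.3.3): 12 spleen arrays together (10350 genes), 6 thymus arrays (10650), and all 18 for the spleen against thymus test (10889), with Benjamini-Hochberg adjustment over all genes of a fit and a threshold of 0.05. Genes whose mean stayed below the median of the whole table in every group of a fit were left out. The scripts were tested on simulated data. Array values are given for 16 genes: Mki67, Top2a and, in each role, the gene with the highest mean and the one with the largest tagged difference. The mitosis genes and the comparison lists were chosen with earlier results of these data known. Precision is limited by 3 arrays per group. Same-numbered untagged arrays correlated in their deviations from the group means (r = 0.639, 0.174 and 0.49 for numbers 3, 4 and 5). Number 4 of either group correlated better with number 5 of the other (0.262 and 0.325). Same-numbered tagged and untagged arrays correlated little: -0.115 and -0.004 for numbers 4 and 5 after perinatal tamoxifen, and 0.079 for number 3 after adult tamoxifen. Number 2 gave 0.058 between the tagged groups, and thymus numbers gave -0.066, 0.044 and 0.117. The main fits carried no block. Replicate numbers entered only as a block among the alternatives and in direct comparisons of same-numbered arrays. The alternatives were other scalings, filters, a pseudocount, weights, covariates, blocks, and leaving out each array. Chimera samples named in the series text were not analysed here.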

Additional observations from a re-analysis of the deposited data

Results flagged for a closer look

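The tagged and untagged perinate against adult differences were tested against each other in limma, and 36 of 39 mitosis genes differed; the largest fitted values were Prr11 (3.19), Mki67 (2.84), Bub1 (2.84), Nusap1 (2.76) and Knl1 (2.72) and the smallest was Espl1 (1.02), all as log2 differences of differences and larger in tagged cells. Between spleen and thymus the differences were larger in spleen for 4 genes, Prr11 (1.96), Anln (1.08), Mki67 (1.01) and Ect2 (0.75). Organ, sex, sorter, age of the mice and recorded tamoxifen change together in these fits and cannot be told apart.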

How the results depend on the processing

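Over all alternatives run, 32 to 39 mitosis genes were called for perinate-tagged against adult-tagged Tregs. The count was 0 throughout for the untagged bulk, 31 to 37 for the difference of the 2, and 27 to 39 in thymus (33 to 39 leaving out each array). The median difference of the mitosis genes kept its sign in these comparisons, the untagged bulk apart. There it ran from -0.12 to 0.23 (log2) and changed sign between settings. Tagged against untagged after perinatal tamoxifen ranged from 17 to 34 when each array was left out and was 20 when a change of at least 2-fold was also required, from 31. After adult tamoxifen, from a count of 8, it was 5 with no filter, 5 with a pseudocount of 16, 16 with array weights, 0 with the interquartile range as a covariate, 20 with only the 6 arrays compared (of 31 genes that reached the filter there), 17 in the fit of all 18 arrays, and 0 to 30 when each array was left out. Within replicate number 3 alone, a comparison chosen after seeing the data, the median difference was -0.58 (log2), with no test. The spleen against thymus count of 4 was 1 with median centring, 1 with no filter, 31 with array weights, 10 with the interquartile range as a covariate, 13 with only the groups compared, and 1 to 10 when each array was left out. The cause of these changes was not tested.

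With the replicate number as a block, 36 genes were called in the tagged comparison, 0 in the untagged, 33 in the difference of the 2, 34 after perinatal and 6 after adult tamoxifen, 37 in thymus and 3 for spleen against thymus. In a block fit of the 6 untagged arrays 0 mitosis genes and 49 of all genes were called. The median tagged difference of 1.95 moved to 1.82 with quantile normalization, 1.74 with the pseudocount, 1.49 with the covariate and 1.48 with the replicate block, and that of spleen against thymus from 0.60 to 0.22 with the block. Array signal limits the low genes: differences against means in the background range may be understated.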

Other observations

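Arrays that share a replicate number could also be compared directly, as values with no test. Such tagged and untagged arrays correlated little, so the shared number may not mark a pair. For number 4 after perinatal tamoxifen 39 of 40 mitosis genes were higher in tagged than untagged cells (median 0.78, log2), and for number 5 all 40 were (median 0.79). For number 3 after adult tamoxifen 36 of 40 were lower in tagged cells (median -0.58), with Prr11 lowest at -1.59 and Cdca5 highest at 0.44. The size of the tagged difference did not follow the gene's mean level (Pearson r = 0.125, Spearman rho = 0.081 over 38 genes, as a description).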
